A study of Mus musculus with 17 samples.

Results

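Collagens are triple-helical proteins of the extracellular matrix, and each collagen gene encodes 1 chain. Fibrillar collagens such as types I, III and V form the tensile fibrils of the intestinal stroma and are made mainly by fibroblasts and smooth muscle cells. Type IV collagen forms the network of the basement membrane under epithelium, around vessels and around muscle, and types XV and XVIII lie at basement membranes as well. Type VI forms beaded filaments, the fibril-associated collagens with interrupted triple helices (FACIT) bind to fibril surfaces, and the remaining types form short-chain networks or span the cell membrane. The collagen genes described here are the 42 genes whose symbol on the array consists of Col, a type number, the letter a and a chain number, out of 18193 genes that had a probe set with a single gene symbol. They were measured by 82 probe sets, and the probe set with the highest mean over all samples stands for each gene (15 genes had 1 probe set and 27 had several).

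RNA of 17 samples, described as colonic mucosa, was hybridized to Affymetrix mouse genome arrays. The aim was to follow experimental colitis in mice with and without peroxisome proliferator-activated receptor γ (PPAR γ) in T cells. CD4cre mice (PPAR γ flfl; CD4Cre+, C57BL/6J background) were sampled on day 0, without dextran sodium sulfate (DSS), and on days 2 and 7 of 2.5% DSS in the drinking water, with 3 samples on each day. WT mice of the same background, described as wild type in the labels and as Cre-negative in the methods, were sampled on the same days of the same challenge, with 3 samples on day 0, 3 on day 2 and 2 on day 7. The recombinase was driven by the CD4 promoter, which is active in the thymus in the precursors of CD4+ and CD8+ T cells alike, so the gene is deleted in both kinds of T cell. Neither labels nor methods state if each hybridized RNA came from a single mouse or from pooled mice, so p-values measure only the spread between these samples.

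Values are log2 values after gcRMA, which the authors used to adjust for background, normalize and summarize each probe set. Background was set at 3.6. Below it lay 95% of the values, over all samples, of 56 probe sets that belong to genes restricted to unrelated organs. In each sample 47.5% to 48.9% of probe sets lay above it. All 8 colon epithelium markers were above background in every group, and so were all 8 smooth muscle markers. Over the samples their means were 12.63 to 13.62 and 11.61 to 12.99, so RNA described as mucosa also held smooth muscle transcripts. Of 5 T cell markers measured, 1 was above background in every group and 1, Cd3e, was at background in every group. Pparg itself, which colon epithelium also expresses, was between 8.28 and 10.62 in CD4cre samples and between 9.18 and 11.21 in WT samples. RNA of such mixed tissue is no check of a deletion in T cells. CD4cre replicate 2 of day 7 stood apart from the other samples. Transcripts of pancreatic digestive enzymes averaged 12.36 to 13.15 in 3 samples (the second CD4cre sample of day 0, the first of day 2 and the second WT sample of day 2), against no more than 4.11 elsewhere. A Hox position score, the mean of 8 Hox genes expressed towards the posterior end minus the mean of 8 expressed further forward, was 0.69 or higher in 10 samples and -0.47 or lower in the remaining 7.

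Of the 42 collagen genes, 22 were above background in all 6 groups, 2 in some groups and 18 in none. The share above background in all groups was 7 of 11 for fibrillar genes, 5 of 9 for basement membrane genes, 4 of 5 for beaded filament genes, 3 of 9 for FACIT genes and 3 of 8 for the short-chain, membrane-spanning and remaining genes. The 4 fibrillar genes at background included Col2a1, Col11a1 and Col11a2, the fibrillar collagens of cartilage, which were at 1.91 to 3.29 in every sample. Col10a1 of growth plate cartilage was at 2.02 to 2.10, and Col17a1 and Col7a1, which anchor epidermis to dermis, were at 2.10 to 2.18 and 2.54 to 2.81. The genes at background are reported as not above background, since the array gives them no usable difference between groups.

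In CD4cre colons, 9 collagen genes were higher on day 7 than on day 0 and none was lower. The 9 were the fibrillar genes Col1a1, Col1a2, Col3a1 and Col5a1, the basement membrane genes Col4a1, Col4a2, Col4a5 and Col18a1, and the FACIT gene Col16a1, with increases of 1.98-fold for Col4a5 to 10.9-fold for Col18a1. These 9 of 42 genes compare with 4.35% of all genes called higher and 4.33% called lower in this comparison (limma, adjusted p under 0.05), and all 9 were among the 22 genes above background, where 6.33% of 10845 genes were called higher. The median log2 fold change was 1.09 over the 22 genes, against -0.05 over all genes above background, and 0.18 over the 42 genes, against -0.03 over all genes. The log2 fold change was positive for 21 of the 22 genes, against 44.1% of genes above background, and the day 7 values of 14 of the 22 genes lay above all day 0 values, against 14.2% of genes. In bulk tissue, more collagen-expressing cells and more collagen RNA per cell cannot be told apart.

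**Figure D1:**
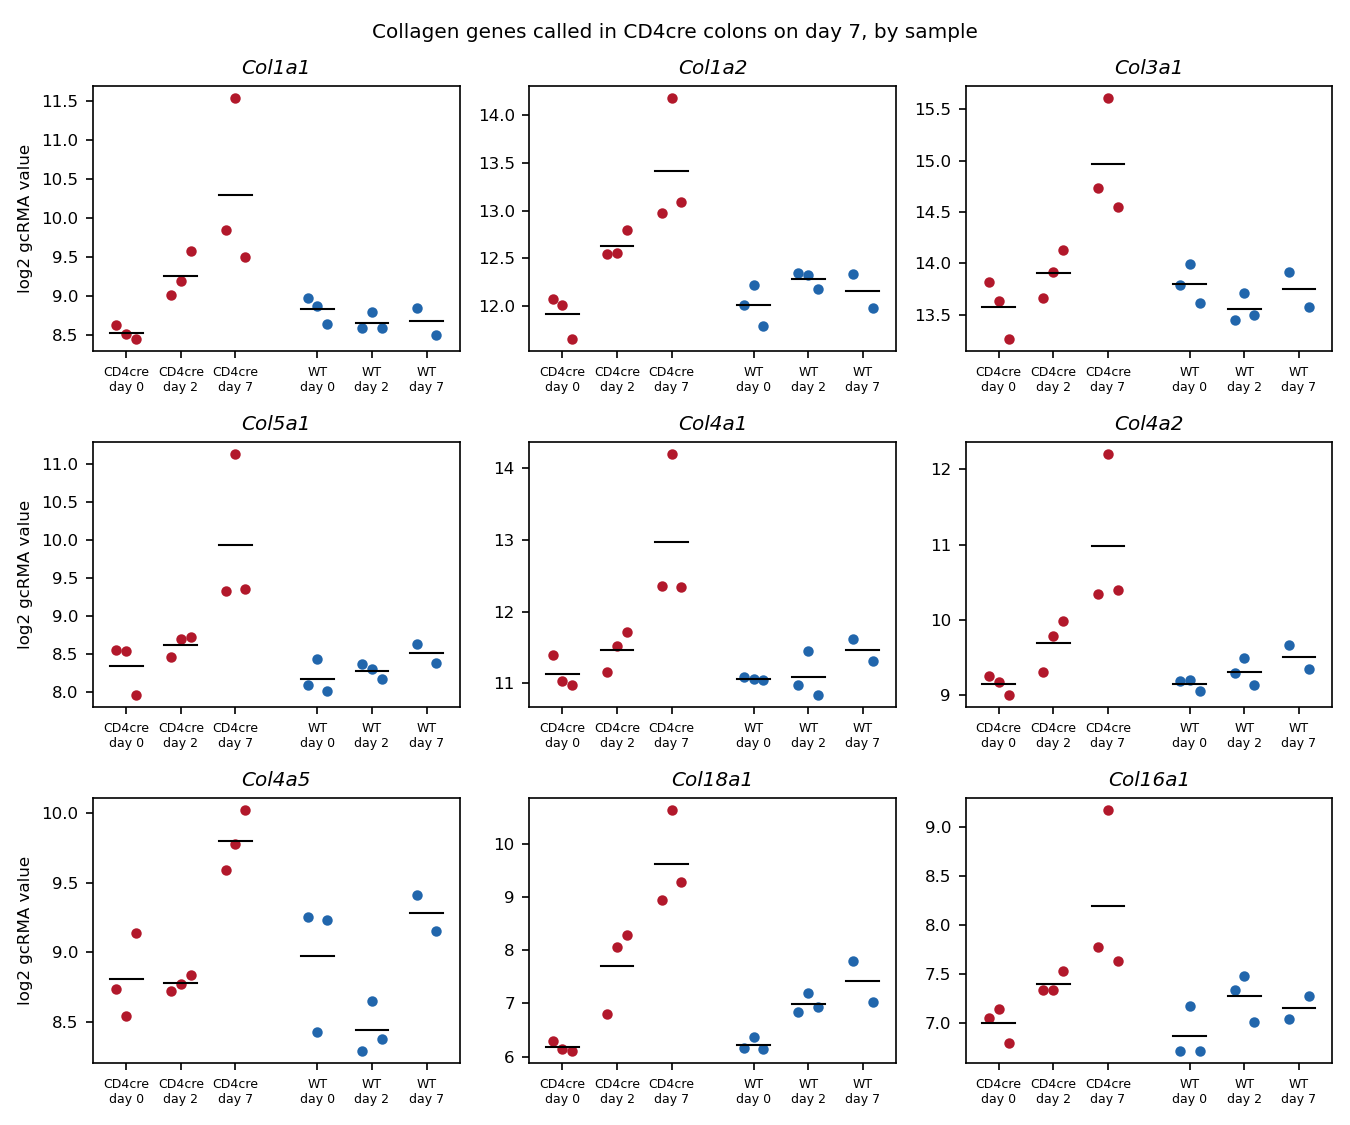
Log2 gcRMA values (vertical axis, own scale for each gene) of the 9 collagen genes called higher in CD4cre mice on day 7, in each sample by genotype and day of DSS (horizontal axis). Points are samples and lines are group means, and for all 9 genes each CD4cre sample of day 7 lies above every CD4cre sample of day 0, with replicate 2 highest for 8 of the 9.

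Type I collagen, the main collagen of scar and stroma, is a trimer of the Col1a1 and Col1a2 chains. Col1a1, the α1 chain, had log2 values of 8.63, 8.52 and 8.45 on day 0, 9.02, 9.19 and 9.58 on day 2 and 9.85, 11.54 and 9.51 on day 7 in CD4cre mice. In WT mice it was at 8.98, 8.87 and 8.65 on day 0, 8.60, 8.80 and 8.59 on day 2 and 8.85 and 8.51 on day 7. The CD4cre values of day 7 and day 0 did not overlap, and the gene rose by 1.77 (SE 0.389, adjusted p = 0.0201), while the WT values of all 3 days overlapped. Col1a2, the α2 chain of the same trimer, was at 12.07, 12.01 and 11.65 on day 0, 12.54, 12.56 and 12.80 on day 2 and 12.97, 14.18 and 13.09 on day 7 in CD4cre mice. Its WT values were 12.01, 12.22 and 11.79 on day 0, 12.34, 12.32 and 12.18 on day 2 and 12.33 and 11.98 on day 7. The 3 CD4cre groups of Col1a2 did not overlap with each other, and the day 7 increase over day 0 was 1.5 (SE 0.259, adjusted p = 0.0063).

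Col3a1 encodes type III collagen, which forms thin reticular fibrils with type I. It was at 13.82, 13.63 and 13.26 on day 0, 13.66, 13.92 and 14.13 on day 2 and 14.73, 15.61 and 14.55 on day 7 in CD4cre mice, against 13.79, 13.99 and 13.61, then 13.45, 13.71 and 13.50, and then 13.92 and 13.57 on the same days in WT mice. All 3 CD4cre values of day 7 lay above the other 14 samples, and the increase over day 0 was 1.39 (SE 0.246, adjusted p = 0.00709). Col5a1, the α1 chain of the type V collagen that nucleates type I fibrils, was at 9.33, 11.13 and 9.35 in CD4cre mice on day 7, against 8.55, 8.54 and 7.96 on day 0. It rose by 1.58 (SE 0.379, adjusted p = 0.0292), and the highest value of any other sample was 8.72. Other Col5a1 probe sets gave 1.87 (adjusted p = 0.131) and 1.59 (adjusted p = 0.0772) and were not called. The partner chain Col5a2 was at 11.11, 12.90 and 11.08 on day 7, against 10.57, 10.24 and 9.61 on day 0, also without overlap, and narrowly missed the threshold (1.56, SE 0.433, adjusted p = 0.0529). The third type V chain, Col5a3, rested on 1 sample, with 5.71, 9.44 and 5.63 on day 7 against 5.64, 5.35 and 4.56 on day 0, and its log2 fold change of 1.74 (SE 0.785, adjusted p = 0.211) was 0.49 without replicate 2. Col27a1, a fibrillar collagen of cartilage, differed by 0.64 (adjusted p = 0.174), with overlap.

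Promoter windows of 3 of the genes called are shown because these genes rose together. The windows run from 250 bases before to 50 bases after the annotated start in RefSeq (GRCm38.p6), 5′ to 3′ on the gene's strand, and 33 of the 42 genes matched a window, with 36 windows in all. Col3a1 lies on the plus strand at chr1:45311288-45311587 with a TATAAA in capitals, and Col1a2 on the plus strand at chr6:4505368-4505667 with CCAAT, or ATTGG where it reads on the other strand, in capitals. The first of 2 Col18a1 windows lies on the minus strand at chr10:77166481-77166780, marked in the same way, and the second held no CCAAT.
Col3a1: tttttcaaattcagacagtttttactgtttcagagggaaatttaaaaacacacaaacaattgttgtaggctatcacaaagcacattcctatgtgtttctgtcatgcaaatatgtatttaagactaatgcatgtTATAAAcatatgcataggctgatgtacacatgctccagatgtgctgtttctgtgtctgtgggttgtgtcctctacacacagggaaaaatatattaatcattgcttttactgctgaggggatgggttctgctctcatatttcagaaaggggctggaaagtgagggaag
Col1a2: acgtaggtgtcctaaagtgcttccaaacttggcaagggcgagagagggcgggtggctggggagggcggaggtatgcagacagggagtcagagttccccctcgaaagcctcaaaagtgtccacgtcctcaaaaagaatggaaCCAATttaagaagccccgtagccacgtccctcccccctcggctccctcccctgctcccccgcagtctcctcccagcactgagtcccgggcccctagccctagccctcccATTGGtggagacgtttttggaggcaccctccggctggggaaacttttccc
Col18a1: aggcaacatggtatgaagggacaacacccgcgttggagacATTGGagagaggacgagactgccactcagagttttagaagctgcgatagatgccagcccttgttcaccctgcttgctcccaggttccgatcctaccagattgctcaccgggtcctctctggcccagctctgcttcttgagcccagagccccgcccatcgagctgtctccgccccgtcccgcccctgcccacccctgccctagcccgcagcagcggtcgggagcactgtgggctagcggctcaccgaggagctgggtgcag
Of the 36 collagen windows, 5 held TATAAA on either strand, against 13.6% of 32851 RefSeq windows, and 13 held CCAAT, against 37.4%. GGGCGG, the GC box, was found in 22 collagen windows (61.1%), against 35.7% of all windows. GC content was 37.7% to 75.0% in the collagen windows, with a median of 52.7% over all windows, and the shares were not adjusted for it. The 22 include both windows of Col6a2 and the overlapping windows of Col4a1 and Col4a2. The AP-1 motif TGANTCA was in 1 collagen window, that of Col6a1 (7.81% of all windows), and TTCNNNGAA, a STAT motif, was in 1, that of Col6a5 (8.3%). Matches of different motifs may overlap, and each is a match of letters only.

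Among the basement membrane genes, Col18a1 had the largest change of the 42. It encodes the type XVIII chain, a heparan sulfate proteoglycan of vascular and epithelial basement membranes whose C-terminal fragment is endostatin. In CD4cre mice Col18a1 was at 6.30, 6.14 and 6.10 on day 0, 6.80, 8.05 and 8.28 on day 2 and 8.95, 10.63 and 9.28 on day 7. In WT mice it was at 6.16, 6.37 and 6.15 on day 0, 6.84, 7.19 and 6.93 on day 2 and 7.80 and 7.03 on day 7. The CD4cre values of the 3 days did not overlap with each other, and those of day 7 lay above every WT value. The increase on day 7 over day 0 was 3.44 (SE 0.429, adjusted p = 0.0013), and the second Col18a1 probe set gave 3.63 (adjusted p = 0.00125).

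Col4a1 and Col4a2 encode the chains of the most widespread type IV trimer and lie head to head. Col4a1 was at 11.39, 11.03 and 10.97 on day 0, 11.16, 11.52 and 11.71 on day 2 and 12.36, 14.20 and 12.34 on day 7 in CD4cre mice, and at 11.08, 11.06 and 11.04, then 10.97, 11.45 and 10.83, and then 11.62 and 11.31 on the same days in WT mice. Col4a2 was at 9.25, 9.18 and 9.0 on day 0, 9.31, 9.78 and 9.99 on day 2 and 10.35, 12.20 and 10.40 on day 7 in CD4cre mice, and at 9.19, 9.20 and 9.06, then 9.29, 9.50 and 9.13, and then 9.67 and 9.35 in WT mice. For both genes the 3 CD4cre samples of day 7 were the 3 highest of the 17, and the increase over day 0 was 1.84 for Col4a1 (SE 0.397, adjusted p = 0.0187) and 1.84 for Col4a2 (SE 0.385, adjusted p = 0.0161). Their promoter windows are shown because the genes share them. The Col4a1 window is on the minus strand at chr8:11312777-11313076 and the Col4a2 window on the plus strand at chr8:11312555-11312854 (RefSeq, GRCm38.p6). The capitals mark the 78 bases that both windows hold, each as its own strand reads them.
Col4a1: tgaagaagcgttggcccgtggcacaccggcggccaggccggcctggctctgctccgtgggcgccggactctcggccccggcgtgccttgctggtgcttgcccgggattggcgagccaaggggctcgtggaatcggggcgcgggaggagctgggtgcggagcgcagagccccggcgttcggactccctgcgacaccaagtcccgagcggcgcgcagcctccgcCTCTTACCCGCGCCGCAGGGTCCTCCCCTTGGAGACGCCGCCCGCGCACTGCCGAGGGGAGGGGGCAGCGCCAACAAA
Col4a2: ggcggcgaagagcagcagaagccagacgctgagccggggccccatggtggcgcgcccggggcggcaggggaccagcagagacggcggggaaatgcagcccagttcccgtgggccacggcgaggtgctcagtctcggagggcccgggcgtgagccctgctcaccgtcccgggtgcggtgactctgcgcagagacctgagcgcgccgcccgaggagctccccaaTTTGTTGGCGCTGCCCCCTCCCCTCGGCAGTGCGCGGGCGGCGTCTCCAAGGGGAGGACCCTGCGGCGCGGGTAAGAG
The 78 shared bases had a GC content of 73.1%, against a median of 52.7% over all RefSeq windows.

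The other type IV chains also lie in pairs. Col4a5, an α5 chain of epithelial and smooth muscle basement membranes, was at 9.59, 9.78 and 10.02 in CD4cre mice on day 7, against 8.74, 8.54 and 9.14 on day 0, and rose by 0.99 (SE 0.215, adjusted p = 0.0193). Its WT values were 9.25, 8.43 and 9.23 on day 0, 8.29, 8.65 and 8.38 on day 2 and 9.41 and 9.15 on day 7. Replicate 2 was not the highest Col4a5 sample, and a second, dimmer Col4a5 probe set gave 0.15 (adjusted p = 0.699), so the probe sets of this gene did not give the same result. Col4a6, whose annotated start lies 1343 bases from that of Col4a5 on the X chromosome, was near background in every sample, at 3.54 to 3.91. The kidney and lung chains Col4a3 and Col4a4 were at background throughout, at 2.55 to 2.70 and 2.73 to 2.94. Col15a1, of vessel and muscle basement membranes, was at 5.41, 7.36 and 5.42 on day 7, against 5.27, 4.87 and 5.28 on day 0 (0.92, SE 0.41, adjusted p = 0.206), and its log2 fold change was 0.28 without replicate 2.

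Outside these classes, 1 gene was called. Col16a1, a FACIT collagen, was at 7.77, 9.17 and 7.63 in CD4cre mice on day 7, against 7.05, 7.14 and 6.79 on day 0, and rose by 1.20 (SE 0.321, adjusted p = 0.0464). Its call was kept under 11 of 27 alternatives, against 26 of 27 for Col18a1, and was lost without any 1 of the CD4cre day 0 samples. The WT values of Col16a1 were 6.71 to 7.48 over the 3 days. The 4 type VI chains above background all had day 7 means above day 0, and none was called. Col6a1 was at 9.96, 11.39 and 10.46 on day 7, against 9.92, 9.88 and 9.92 on day 0 (0.70, adjusted p = 0.138), and Col6a2 at 10.81, 12.20 and 11.32, against 10.81, 10.72 and 10.50 (0.77, adjusted p = 0.101), where the values of 10.81 differ before rounding. A second Col6a2 probe set was called (1.04, adjusted p = 0.0341). Col6a3 was at 9.67, 11.36 and 10.15 on day 7, against 9.28, 9.27 and 8.92 on day 0, without overlap (1.24, SE 0.347, adjusted p = 0.0551). Col14a1, a FACIT collagen of muscle and tendon sheaths, was at 8.46, 8.56 and 8.55 on day 7 and 8.09, 7.99 and 8.57 on day 0 (0.30, adjusted p = 0.303), and Col13a1, a membrane-spanning collagen, differed by 0.16 (adjusted p = 0.784). Col23a1, another membrane-spanning collagen, was at 5.33, 6.76 and 6.42 on day 7 and 5.70, 5.77 and 6.27 on day 0, with overlap (0.26, adjusted p = 0.653).

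**Figure D2:**
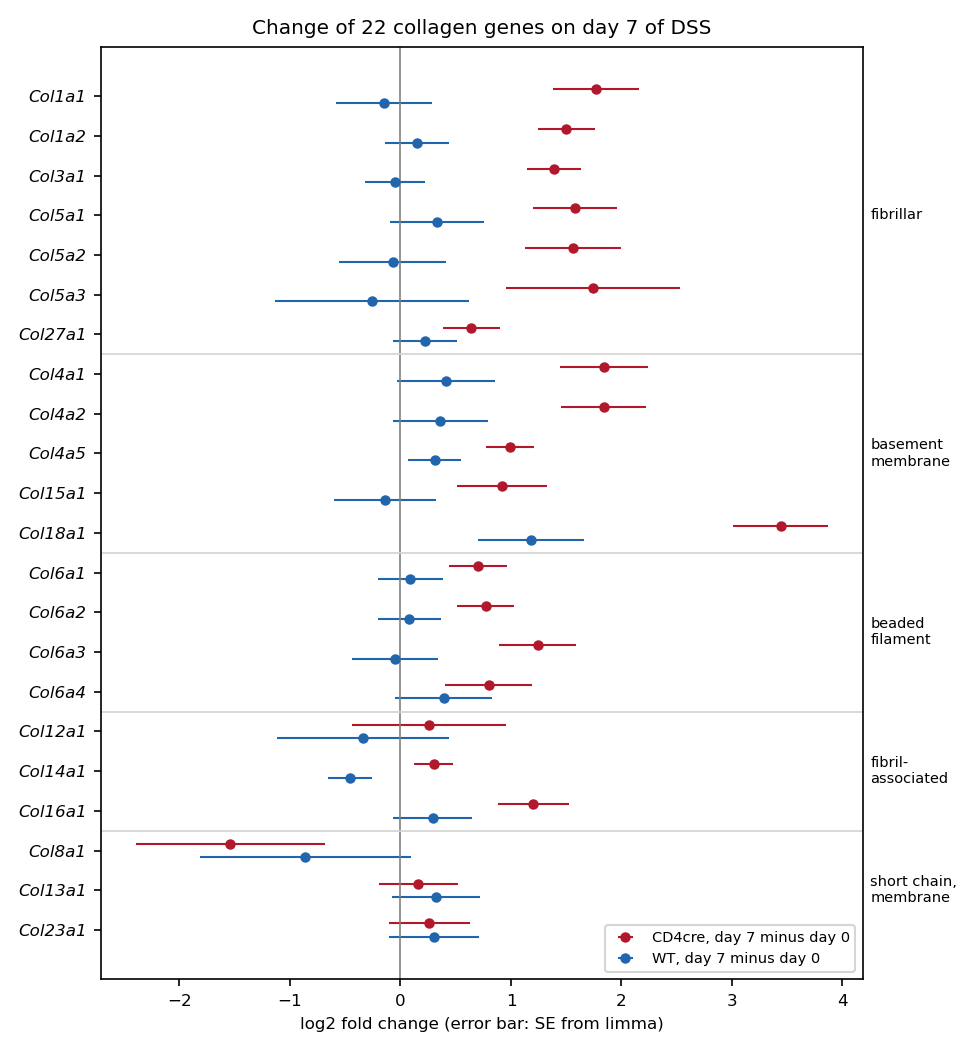
Log2 fold change on day 7 against day 0 (horizontal axis) of the 22 collagen genes above background in all groups, in CD4cre mice (red) and WT mice (blue), grouped by class. Points are limma estimates and bars their standard errors, and 21 of the 22 CD4cre values are above 0, with a median of 1.09, against a median of 0.12 in WT mice.

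These calls rest on few samples. Without CD4cre day 0 replicate 1, 2 or 3 the number of collagen genes called was 5, 3 or 4, without CD4cre day 7 replicate 1 it was 14, and a fit of these 2 groups alone called 0. Without the 3 samples with pancreatic transcripts it was 1, Col18a1, while the median over the 22 genes was 1.06 and Col1a1, for example, had a log2 fold change of 1.76. With each array centred on its median, 12 were called higher and 8 lower, and the 8 were genes at background with falls of 0.07 to 0.14.

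CD4cre day 7 replicate 2 was the highest of the 17 samples for 8 of the 9 called genes, and its class means were the highest of all samples in each of the 5 classes. The fibrillar mean was 11.80 in replicate 2 and 10.02 and 10.03 in the other CD4cre samples of day 7, and the basement membrane mean was 10.84 in replicate 2 and 9.33 and 9.49 in the others. Marker means of other cell types also differed in replicate 2, and not all in the same direction. The mean of the 7 fibroblast markers was 10.32 in replicate 2, against 9.32 and 9.46 in the other 2 samples, that of the 4 pericyte markers 9.47, against 8.32 and 7.91, and that of the 7 endothelial markers 7.60, against 5.76 and 5.98. The mean of the 7 macrophage markers was 9.96, against 8.75 and 8.77, and that of the 8 smooth muscle markers 12.49, against 11.61 and 11.92. Lower in replicate 2 were the means of the 8 epithelial markers (12.67, against 13.46 and 13.35) and of the 5 T cell markers (3.14, against 3.73 and 3.45). Without replicate 2 the same 9 genes were called, with log2 fold changes of 0.71 for Col16a1 to 2.94 for Col18a1, and the median over the 22 genes was 0.73. The log2 fold change was then positive for 18 of the 22 genes. That of Col12a1 turned from 0.26 to -0.76.

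**Figure D3:**
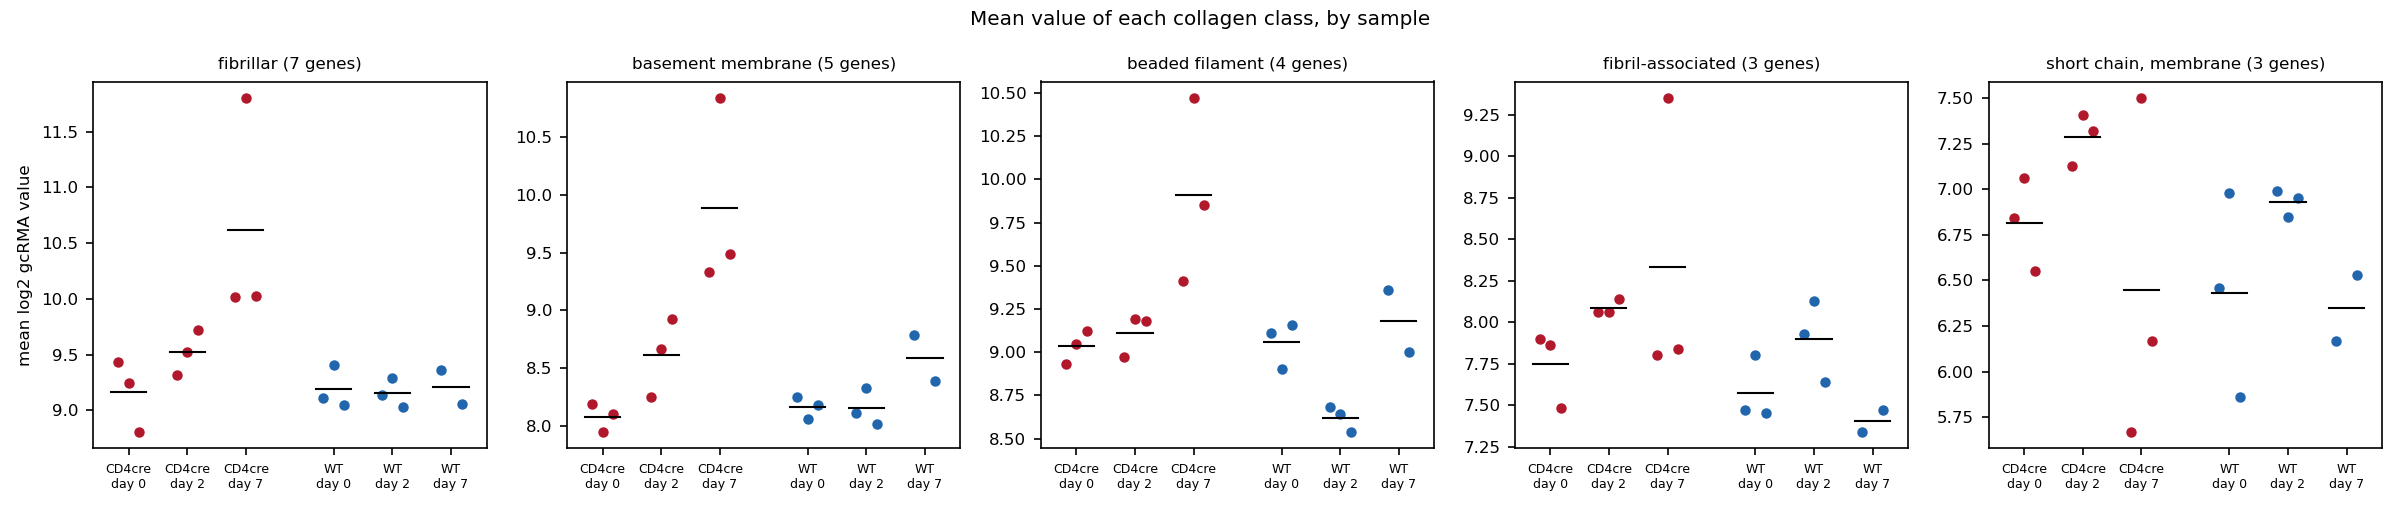
Mean log2 gcRMA value (vertical axis, own scale for each class) of the collagen genes above background in each class, in each sample by genotype and day of DSS (horizontal axis). Points are samples and lines are group means, and the fibrillar mean of the CD4cre samples of day 7 (10.02, 11.80 and 10.03) lies above every other sample.

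Over all samples, stromal and immune markers also differed between CD4cre mice on day 7 and day 0. In this comparison 4.35% of all genes were called higher and 4.33% lower. Of 7 fibroblast markers 3 were called higher and none lower, their mean being 9.32 to 10.32 on day 7 and 8.97 to 9.06 on day 0, with Pi16 at background in every group. All 7 macrophage markers were called higher, with means of 8.75 to 9.96 on day 7 and 7.02 to 7.26 on day 0. None of the 8 smooth muscle, 8 epithelial or 4 pericyte markers was called, and smooth muscle means were 11.61 to 12.49 on day 7 and 11.99 to 12.90 on day 0. The 7 endothelial markers had 1 call, and of 5 neutrophil markers, of which Cxcr2 and Ngp were at background, 2 were called, with means of 5.35 to 6.79 on day 7 and 2.66 to 2.68 on day 0. The part of these cell types in the collagen values was not tested.

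On day 2 no collagen gene was called in CD4cre mice, where 0.0165% of all genes were called higher, and at an unadjusted p under 0.05 there were 3, Col18a1, Col1a2 and Col24a1, the last of them at background, against 7.9% of all genes. Col18a1 had the largest difference on day 2 from day 0, at 1.54 (SE 0.429, adjusted p = 0.37), and Col1a2 and Col1a1 followed at 0.73 each (adjusted p = 0.566 and 0.754). For Col18a1, Col1a2 and Col1a1 the day 2 values lay above all day 0 values. Over the 22 genes the median was 0.33, against 0.02 over all genes above background, and 6 of the 22 had day 2 values above all day 0 values, against 11.5% of genes.

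Between day 7 and day 2 of CD4cre mice, 4 collagen genes were called higher and none lower, against 3.06% of all genes called higher and 4.27% called lower. They were Col18a1 (1.91, SE 0.429, adjusted p = 0.0255), Col4a5 (1.02, SE 0.215, adjusted p = 0.0184), Col3a1 (1.06, SE 0.246, adjusted p = 0.0289) and Col4a1 (1.51, SE 0.397, adjusted p = 0.0487). The day 7 values of 11 of the 22 genes, these 4 included, lay above all day 2 values, against 11.8% of genes. The number of calls was 1 without CD4cre day 2 replicate 1, 0 without CD4cre day 2 replicate 2, 7 without CD4cre day 7 replicate 1 and 8 without CD4cre day 7 replicate 3. Without the 3 samples with pancreatic transcripts none was called, with log2 fold changes of 1.45 for Col18a1, 1.0 for Col4a5, 0.94 for Col3a1 and 1.35 for Col4a1. Without CD4cre day 7 replicate 2 there were 4 genes called higher, Col3a1, Col4a1, Col4a5 and Col5a1, and 1, Col8a1, called lower. The call of Col18a1 was lost there (1.4, adjusted p = 0.0536). Col4a1 kept its call under 7 of 27 alternatives, and the replicate block and quantile normalization were among those that ended it.

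WT mice had no collagen gene called on any day. On day 7 against day 0, 0.0989% of all genes were called higher and 0.0055% lower, and 5 collagen genes had an unadjusted p under 0.05, against 10.3% of all genes. Of the 5, 3 were at background, and the others were Col18a1, higher, and Col14a1, lower. Col18a1 was again the collagen gene with the largest difference, at 1.18 (SE 0.48, adjusted p = 0.488), with 7.80 and 7.03 on day 7 against at most 6.37 on day 0. The median over the 22 genes was 0.12, against 0.05 over all genes above background, and the day 7 values of 4 genes lay above and of 1 gene below all day 0 values, against 20.8% and 13.2% of genes. The 1 below was Col14a1, with 7.85 and 7.67 on day 7 against 8.17, 7.89 and 8.58 on day 0 (-0.46, SE 0.199, adjusted p = 0.488). On day 2 against day 0, where 0.434% of genes were called higher and 0.297% lower, 3 collagen genes had an unadjusted p under 0.05, against 13.1% of all genes, and 1 of them, Col4a5 with a log2 fold change of -0.53, was above background. The day 2 values of 2 genes lay above and of 3 below all day 0 values, against 14.6% and 14.1%. On day 7 against day 2, where 0.159% were called higher and 0.176% lower, 4 had an unadjusted p under 0.05, against 12.3% of all genes, and 3 of the 4 were above background, 2 higher and 1 lower. The day 7 values of 6 genes lay above and of 3 below, against 28.3% and 18.8%.

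Between the genotypes on day 7, Col18a1 was the 1 collagen gene called, higher in CD4cre mice by 2.21 (SE 0.48, adjusted p = 0.0472), a 4.62-fold difference. Its values were 8.95, 10.63 and 9.28 in CD4cre mice and 7.80 and 7.03 in WT mice. This 1 of 42 genes compares with 0.918% of all genes called higher and 1.12% called lower, and at an unadjusted p under 0.05 there were 14, all higher, against 7.32% of all genes higher and 11.3% lower at that threshold. Col3a1 (1.22, adjusted p = 0.0526) and Col1a2 (1.26, adjusted p = 0.0561) narrowly missed the threshold, and Col5a3, at 5.71, 9.44 and 5.63 in CD4cre mice and 4.89 and 4.68 in WT mice, differed by 2.14 (SE 0.877, adjusted p = 0.266) and by 0.88 without CD4cre day 7 replicate 2. The log2 fold change was positive for all 22 genes above background, against 42.3% of such genes in all, with a median of 1.01, against -0.06, and the CD4cre values of 13 of the 22 lay above the WT values, against 15.5% of genes. Without CD4cre day 7 replicate 2 it was positive for 18 of the 22 with a median of 0.66, and the 2 calls were Col1a1 (1.00, adjusted p = 0.0303) and Col1a2 (0.88, adjusted p = 0.0364) in place of Col18a1 (1.70, adjusted p = 0.0732). The call of Col18a1 held without CD4cre day 2 replicate 1 or CD4cre day 7 replicate 1 or 3 and was lost without any 1 of the other 14 samples. It was also lost with these 2 groups alone, with the replicate block, with the Hox score as a covariate (2.08, adjusted p = 0.0888) and without the 3 samples with pancreatic transcripts (2.21, adjusted p = 0.0737), and without CD4cre day 7 replicate 1 or 3 the number of calls was 2 or 8.

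On day 0, before DSS, no collagen gene was called between the genotypes, where 0.0055% of genes were called in each direction, and 1, Col9a1 at background, had an unadjusted p under 0.05, against 5.77% of all genes. No gene of the 22 had CD4cre values above all WT values and 1 had them below, against 9.08% and 6.58% of genes. The 1 below was Col1a1, at 8.63, 8.52 and 8.45 in CD4cre mice and 8.98, 8.87 and 8.65 in WT mice. The log2 fold change of CD4cre against WT was positive for 11 of the 22 genes, with a median of 0, and was largest for Col8a1 (0.87, adjusted p = 0.967) and Col12a1 (0.39, adjusted p = 0.967). On day 2 no collagen gene was called either, where 0.0165% of genes were called higher and 0.011% lower, and none had an unadjusted p under 0.05, but all 22 genes had a positive log2 fold change, between 0.13 and 0.72, with a median of 0.36. The share of genes above background with a positive value on day 2 was 58.1%, with a median of 0.04, and the CD4cre values of 9 of the 22 lay above the WT values, against 12.4% of genes. The largest were Col18a1 (0.72, SE 0.429, adjusted p = 0.775) and Col6a3, at 9.08, 9.65 and 9.79 in CD4cre mice and 9.02, 8.98 and 8.57 in WT mice (0.65, SE 0.347, adjusted p = 0.743). Hox position scores on day 2 were 1.49, 0.94 and 0.69 in CD4cre mice and 1.97, 1.80 and 1.68 in WT mice. With the score as a covariate 21 of the 22 genes were positive on day 2, from -0.02 to 1.3. Without the 3 samples with pancreatic transcripts 21 were positive, with a lowest value of -0.44.

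The DSS effects of the genotypes were compared directly. For no collagen gene was the day 7 effect in CD4cre mice called as different from that in WT mice, where 0.0605% of genes were called higher and 0.0989% lower, and 10 collagen genes had an unadjusted p under 0.05, all with a positive difference, against 4.45% of all genes with a positive and 8.28% with a negative one at that threshold. The difference was 2.26 for Col18a1 (SE 0.644, adjusted p = 0.21), 2.01 for Col5a3 (SE 1.18, adjusted p = 0.676; 0.75 without CD4cre day 7 replicate 2), 1.92 for Col1a1 (SE 0.583, adjusted p = 0.241), 1.45 for Col3a1 (SE 0.369, adjusted p = 0.159) and 1.36 for Col1a2 (SE 0.389, adjusted p = 0.212). The difference for Col1a1 includes its lower CD4cre values on day 0, and on day 7 the genotypes differed by 1.62 in this gene. Since no difference of effects was called, the calls in CD4cre mice and their absence in WT mice do not show that the effects differed. Without CD4cre day 7 replicate 2 the number of calls was 1, and without CD4cre day 7 replicate 3 it was 2. For the day 2 effects 0% of genes were called in either direction (1 probe set that stands for no gene here was called over the array), no collagen gene had an unadjusted p under 0.05, and the largest differences were 0.90 for Col1a1 (SE 0.55) and 0.83 for Col6a3 (SE 0.491).

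A pair of collagen genes separated the samples by their Hox position score. Col8a1 encodes a short-chain collagen of vessel walls and smooth muscle, and Col12a1 a FACIT collagen of dense connective tissue. Col8a1 was between 9.43 and 11.04, with a median of 10.19, in the 10 samples with a score above 0 and between 6.78 and 8.56, with a median of 8.0, in the 7 samples with a score below 0. Col12a1 was between 7.94 and 10.33, with a median of 8.43, in the 10 samples and between 7.05 and 7.53, with a median of 7.17, in the 7. They were the 2 of the 22 genes whose values did not overlap between these samples, against 1.63% of genes above background with higher and 1.28% with lower values at a score above 0. The 10 and 7 samples were set apart by the score and are no groups of the study.

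Col8a1 split in the same way within groups that held samples on both sides of 0. In CD4cre mice it was at 10.24, 10.45 and 8.44 on day 0, 11.04, 10.07 and 9.43 on day 2 and 6.78, 10.21 and 7.53 on day 7, and in WT mice at 8.56, 9.97 and 8.0 on day 0, 10.19, 9.44 and 10.19 on day 2 and 7.61 and 8.37 on day 7. The scores of these samples, in the same order, were 1.27, 0.84 and -0.73, then 1.49, 0.94 and 0.69, and then -0.52, 0.92 and -0.57 in CD4cre mice, and -0.67, 0.92 and -0.47, then 1.97, 1.80 and 1.68, and then -0.84 and -0.58 in WT mice. Each high Col8a1 value stood beside a score above 0. The log2 fold changes of Col8a1 were -1.54 on day 7 against day 0 (SE 0.855, adjusted p = 0.286) and -2.0 on day 7 against day 2 (SE 0.855, adjusted p = 0.223) in CD4cre mice. Without CD4cre day 7 replicate 2, the day 7 sample with a score above 0, they were -2.55 (adjusted p = 0.0696) and -3.02 (adjusted p = 0.0377), and with the score as a covariate they were -0.83 and -0.50. In WT mice Col8a1 differed by -1.95 on day 7 against day 2 (SE 0.956, adjusted p = 0.54), and this turned to 1.49 with the score as a covariate, and Col6a4 had the next largest difference there at 1.09 (SE 0.439, adjusted p = 0.416). Col6a4 was at 6.96 and 6.30 on day 7 and 5.38, 5.57 and 5.70 on day 2 in WT mice. Day 2 of WT mice held only samples with a score above 0 and day 7 only samples below 0, so the day and the score cannot be told apart there. With the score as a covariate the number of collagen genes called higher in CD4cre mice on day 7 against day 0 was 13.

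**Figure D4:**
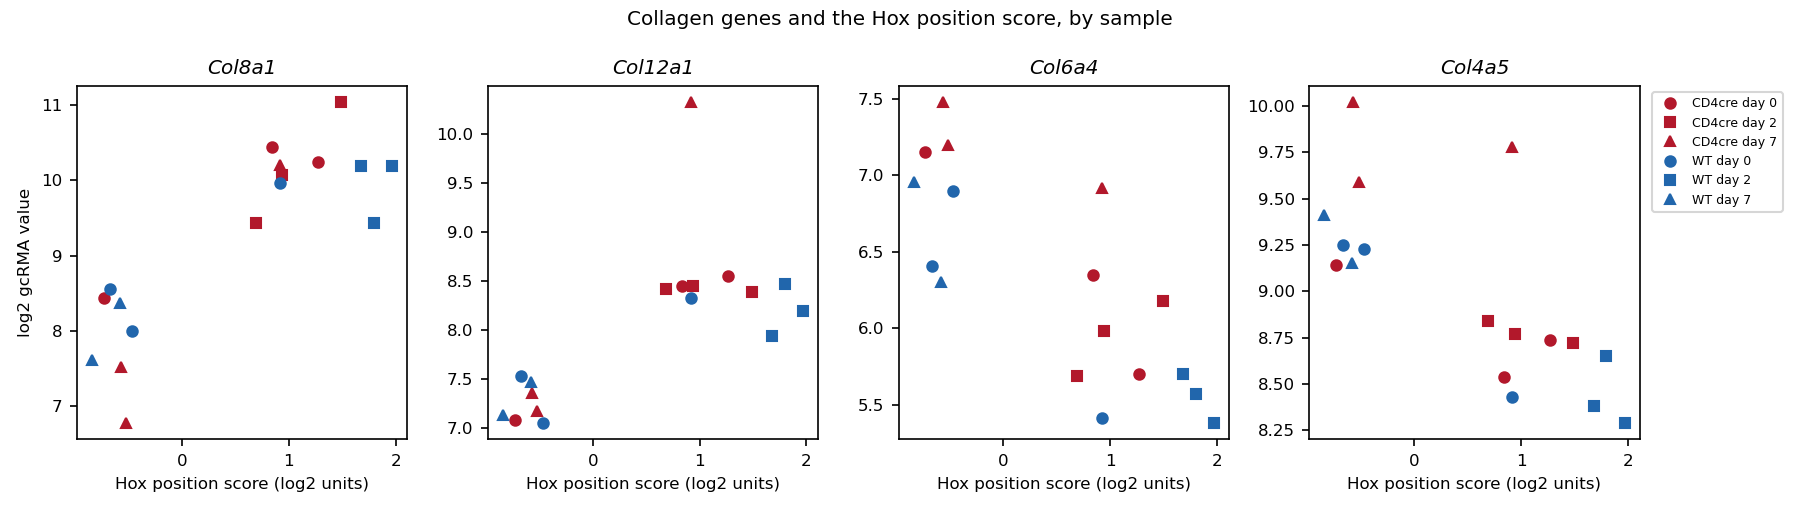
Log2 gcRMA values (vertical axis, own scale for each gene) of Col8a1, Col12a1, Col6a4 and Col4a5 against the Hox position score of the sample in log2 units (horizontal axis). Each point is a sample, colour gives the genotype and shape the day of DSS, and Col8a1 and Col12a1 are higher in all 10 samples with a score above 0 than in the 7 below, while Col6a4 (5.38 to 6.92 against 6.30 to 7.48) and Col4a5 (8.29 to 9.78 against 9.14 to 10.02) overlap.

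Genes that make, fold and cross-link collagen were measured alongside. Of 25 measured genes of collagen synthesis and processing, 4 were called higher and none lower in CD4cre mice on day 7 against day 0, with a median log2 fold change of 0.44. For this list and those below, 4.35% of all genes were called higher and 4.33% lower there, with a median of -0.03. The shares were 3.06% and 4.27% for day 7 against day 2, and 0.918% and 1.12% between the genotypes on day 7. Serpinh1, the chaperone HSP47 that binds the collagen triple helix, was at 10.58, 11.99 and 10.41 on day 7, against 9.58, 9.59 and 9.41 on day 0 (1.47, SE 0.358, adjusted p = 0.0316). Loxl1, a cross-linking lysyl oxidase, rose by 1.56 (SE 0.393, adjusted p = 0.0359), and Sparc, a collagen-binding matricellular protein, by 1.60 (SE 0.343, adjusted p = 0.018). The fourth was Colgalt1, which adds galactose to hydroxylysine, with 0.65 (SE 0.0821, adjusted p = 0.00141). Between day 7 and day 2, Colgalt1 (0.33, adjusted p = 0.0381) was called higher and Mia3, the TANGO1 protein that loads procollagen into transport carriers, fell by 0.67 (adjusted p = 0.0113).

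Genes of collagen cleavage and its inhibition had a median of 1.66 in the same comparison of day 7 with day 0, and 5 of 9 were called higher and none lower. Mmp13, a collagenase of fibrillar collagen, was at 10.66, 14.30 and 9.72 in CD4cre mice on day 7, against 4.96, 5.43 and 4.21 on day 0, and rose by 6.69 (SE 0.954, adjusted p = 0.00251), and its WT values on day 7 were 8.09 and 6.28. Timp1, an inhibitor of matrix metalloproteinases, was at 7.79, 10.28 and 7.57 on day 7 and was not above background on day 0, so it was at least 30.8-fold higher, measured from the background level (adjusted p = 0.000758). Both genes were also called higher on day 7 against day 2. Mmp2, a gelatinase, rose by 1.93 (SE 0.347, adjusted p = 0.00766) over day 0. Between CD4cre and WT mice on day 7, Timp1 was higher by 3.21 (SE 0.637, adjusted p = 0.0336), with 7.79, 10.28 and 7.57 against 5.28 and 5.39, and Timp3, a matrix-bound inhibitor, by 0.83 (SE 0.182, adjusted p = 0.0491).

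Of 9 measured collagen receptors, 1 was called. Ddr2, a receptor tyrosine kinase that fibrillar collagen activates, was at 9.64, 10.48 and 9.63 in CD4cre mice on day 7, against 8.62, 8.76 and 8.67 on day 0 (1.23, SE 0.203, adjusted p = 0.00543). It was also called against day 2 (0.83, adjusted p = 0.0361) and against WT mice on day 7, whose values were 8.74 and 8.80 (1.15, SE 0.227, adjusted p = 0.0336). The median over the receptors was 0.10 for day 7 against day 0 of CD4cre mice.

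Of 14 measured laminins and other basement membrane proteins, 4 were called higher and none lower on day 7 against day 0 of CD4cre mice, with a median of 0.90. Lamb1, a laminin β chain, was at 10.56, 12.20 and 10.50 on day 7, against 9.42, 9.32 and 9.54 on day 0 (1.66, SE 0.357, adjusted p = 0.0186), and Nid1, which links laminin to type IV collagen, rose by 1.29 (SE 0.335, adjusted p = 0.0412). Lama1, a laminin α chain, was at 4.63, 7.57 and 5.45 on day 7 and not above background on day 0, which made it at least 4.87-fold higher (adjusted p = 0.00992). Lama4, the laminin α chain of vessels, was the remaining call. Against day 2, Lama1, Lamb1 (1.43, adjusted p = 0.0389) and Lama3 (1.27, adjusted p = 0.042), a laminin α chain of epithelium, were called higher.

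Among 9 fibril-binding proteoglycans, 2 were called higher and 1 lower in the same comparison of day 7 with day 0, with a median of -0.05. Bgn, biglycan, rose by 1.17 (SE 0.316, adjusted p = 0.0472), and Dcn, decorin, which coats type I fibrils and is also 1 of the fibroblast markers, by 1.02 (SE 0.177, adjusted p = 0.00662). Ogn, osteoglycin, was at 11.15, 10.84 and 11.36 on day 7, against 11.95, 12.15 and 11.68 on day 0, and fell by 0.81 (SE 0.168, adjusted p = 0.015). Dcn was also higher (0.86, adjusted p = 0.0162) and Ogn lower (-0.89, adjusted p = 0.0115) on day 7 than on day 2. In these 5 lists no gene was called in WT mice on any day, in either genotype's comparison of day 2 with day 0, between the genotypes on day 0 or day 2, or for a difference of DSS effects.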

How the data were processed

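Colon RNA of 17 samples was measured on Affymetrix mouse genome arrays. The deposited values are log2 expression values that the authors made from the scanned arrays with the affy package and gcRMA in R 2.9.0, a method that corrects each probe for background by its GC content and puts all arrays on a common distribution. The normalization assumes that most genes are alike between arrays. The table held 45101 probe sets, of which 64 controls were left out and 45037 were tested with no filter on low values. Gene symbols came from the platform annotation, in which 34945 probe sets had 1 gene, 932 several and 9160 none. Genes were named only from those with 1 gene.

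A linear model with 6 group means over all 17 samples was fitted with limma 3.58.1 in R 4.3.3 and moderated by empirical Bayes (residual degrees of freedom 11, prior 0.888). A gene was called where the two-sided p, adjusted by Benjamini-Hochberg over the 45037 probe sets of each of the 11 comparisons, was below 0.05, and an adjusted p in the text is from this fit. The root mean square SD between samples of a group was lowest in the WT group of day 7 (0.21) and highest in the CD4cre group of that day (0.49), and correlations between replicates were 0.978 to 0.997. Precision is limited by how many arrays there were.

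Samples were grouped by their labels. Replicate numbers occur in every group, but of 40 pairs of same-numbered samples 15 had deviations correlated over 0.1 (range -0.45 to 0.50), so no block was used. Collagen genes, classes, marker lists and pathway lists were chosen with earlier results of these data known. Values per sample are given for genes called in a comparison, the 2 with the highest mean in each class, the 2 with the largest difference in each comparison and the type IV pairs. For some of these genes they cover only part of the 6 groups, or are given as a range. Of the pathway lists, up to 3 called genes with the largest difference per list and comparison were to be named, and Colgalt1 as the fourth call and Lama4 were added after their values were seen. Col6a6 and Col28a1 were listed but not analysed here. The enteric glia list (3 genes measured), the T cell list (5 measured) and the pancreatic list (11 measured) had no calls in CD4cre mice on day 7 against day 0. Alternatives were other fits, normalizations, filters, probe set choices and thresholds, and leaving out samples. The raw arrays, flow cytometry, histology and RT-PCR were not analysed here.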

Additional observations from a re-analysis of the deposited data

How the results depend on the processing

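Calls of collagen genes depended on the fit. For CD4cre mice on day 7 against day 0 (9 called) the number was 0 in a fit of these 2 groups alone, 20 with median centring (12 higher and 8 lower), 1 without the 3 samples with pancreatic transcripts, 18 at an unadjusted p under 0.05, and 3 to 14 when 1 sample was left out. For day 7 against day 2 (4 called) it was 0 with these groups alone, with array quality weights and without the pancreatic samples, 2 with the probe set of highest interquartile range, 7 with a filter on low values or at an adjusted p under 0.1, 10 with the Hox score as a covariate, 16 unadjusted, and 0 to 8 with 1 sample left out. For CD4cre against WT on day 7 (1 called) it was 0 with these groups alone, without the pancreatic samples and with the Hox score, 2 with median centring or with any probe set of a gene, 4 with weights, 5 with the filter or at an adjusted p under 0.1, 14 unadjusted, and 0 to 8 with 1 sample left out. With the replicate number as a block it was also 0, and the block left 9 calls for day 7 against day 0. Of all genes, 26.1% had an unadjusted p under 0.05 for day 7 against day 0 of CD4cre mice. The share was 22.9% for day 7 against day 2 and 18.6% between the genotypes on day 7. Under the other alternatives the share of all genes called was not taken. In CD4cre mice on day 2 against day 0 there were 3 unadjusted. In WT mice, where none was called, weights gave 2 on day 7 and 9 on day 2 against day 0, and unadjusted counts were 5 and 3, and 4 for day 7 against day 2. Between genotypes on day 0 weights gave 5, and 1 was unadjusted. For the difference of day 7 effects weights gave 4, 10 were unadjusted, and leaving out 1 sample gave 0 to 2. In the weighted fit WT day 0 replicate 1 had a weight of 16.6, against 0.664 and 0.318 for replicates 2 and 3. The weighted counts that involve WT day 0 therefore rest mostly on 1 array of that group. With the Hox score as a covariate Col8a1 turned direction in WT mice, at 1.49 on day 7 against day 2 and -1.48 on day 2 against day 0, with no call either way. The cause of these changes was not tested. Of 1430 class medians recomputed, 1398 moved by less than the spread between samples. Many of them could not move, because leaving out a sample of a group not compared changes neither group mean. The count is therefore no measure of how stable the medians were. Array signal over background limits the 18 genes at background, for which no difference can be read.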
